A study of Mus musculus with 24 samples.

Results

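The epithelial ETS factors Elf5, Ehf, Elf3 and Spdef were described in mouse mammary cells sorted 4 weeks after tamoxifen. Members were the genes read by a probe set whose only annotated symbol was Elf5, Ehf, Elf3 or Spdef, with the brightest probe set kept where a gene had several. Each of the 4 genes had 1 such probe set, so the family makes up 4 of the 19937 genes tested. Elf5 (probe set 10474171) and Ehf (10485445) lie on chromosome 2, Elf3 (10358027) on chromosome 1 and Spdef (10449377) on chromosome 17.

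All mice carried Lgr5-creERT2, a tamoxifen-activated Cre recombinase under control of the Lgr5 gene, on a mixed FVB/C57BL6 background. Mutant mice also carried the PIK3CA H1047R transgene, which encodes an activated catalytic subunit of phosphoinositide 3-kinase, and control mice did not. The 8 groups of 3 arrays were mutant and control basal GFP-positive cells, mutant and control basal GFP-negative cells, mutant and control luminal Sca1-negative cells, and mutant and control luminal Sca1-positive cells. Basal cells were CD24 low and Sca1 negative, luminal cells were CD24 high, and cells with the leukocyte antigen CD45 were gated out. GFP marks expression of the transgene, of Lgr5 or of both, so in control mice it can mark Lgr5 expression alone. Mutant luminal cells were GFP-positive and control luminal cells GFP-negative, so genotype and GFP state cannot be told apart in the luminal comparisons. Each array holds amplified RNA of 250 cells from pooled glands of 2 to 3 estrus-synchronised mice, and the 3 replicates are independent sortings. The age of the mice is not given in the sources used here.

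ETS factors share a DNA-binding domain that recognises a GGAA core, and the members described here are mostly expressed in epithelia. Elf5 is known in the mouse mammary gland as a factor of luminal progenitor and alveolar cells that is needed for milk production in pregnancy, where it acts alongside prolactin, Jak2 and Stat5. Ehf and Elf3 are its close relatives in many glandular and surface epithelia. Spdef is known in mouse intestine and airway for the maturation of mucus-secreting goblet cells.

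Promoters are shown because ETS factors bind GGAA, for Elf5, which passed the test in mutant basal cells, and for Elf3, which did not. In the RefSeq promoter table of GRCm38.p6, 3 of the 4 members matched, with 4 promoters of 300 bases each (250 before and 50 after the start), and Ehf had no entry. Capitals mark GGAA, or TTCC where the motif lies on the opposite strand, and each sequence runs in the direction of transcription.
Elf5, start 1, chr2:103411848-103412147, + strand: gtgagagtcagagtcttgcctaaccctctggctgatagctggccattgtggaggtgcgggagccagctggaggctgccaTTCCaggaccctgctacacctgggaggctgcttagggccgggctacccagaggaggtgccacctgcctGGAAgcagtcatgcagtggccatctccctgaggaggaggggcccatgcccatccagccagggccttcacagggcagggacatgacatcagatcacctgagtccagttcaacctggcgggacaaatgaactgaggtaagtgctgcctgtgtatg
Elf5, start 2, chr2:103423818-103424117, + strand: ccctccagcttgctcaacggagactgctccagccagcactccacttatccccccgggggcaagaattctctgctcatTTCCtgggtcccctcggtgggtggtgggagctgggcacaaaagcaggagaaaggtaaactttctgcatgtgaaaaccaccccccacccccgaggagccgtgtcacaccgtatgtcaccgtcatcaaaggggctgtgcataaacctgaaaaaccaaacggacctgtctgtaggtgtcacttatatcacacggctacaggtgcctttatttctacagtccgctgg
Elf3, chr1:135258423-135258722, - strand: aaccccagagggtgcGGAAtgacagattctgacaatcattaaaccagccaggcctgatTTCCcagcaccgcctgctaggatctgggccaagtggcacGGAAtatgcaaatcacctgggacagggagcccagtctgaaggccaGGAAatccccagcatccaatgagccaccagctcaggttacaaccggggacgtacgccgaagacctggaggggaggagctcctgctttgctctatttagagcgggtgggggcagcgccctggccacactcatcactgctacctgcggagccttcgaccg

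Elf5 had 2 copies of GGAA on both strands at its first start, and 84.6% of 32851 mouse promoters of the same length had at least as many. The second Elf5 start had 1 copy, and 96.0% of promoters held at least 1. Elf3 had 4 copies (46.3% of promoters had at least as many) and Spdef 7 (8.02%), against a median of 3 over all promoters. The letters TTCNNNGAA, the core read by Stat factors, which equal their own reverse complement, were found in 0 of the 4 promoters and in 8.30% of all promoters. These matches are descriptions of the letters in these windows.

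The arrays gave expression values read as log2, a base inferred from their range. A level under 4.60, the median of all values of the tested genes, is called dim here, and a difference against a dim level is not exact in size. Arrays of a group correlated at 0.93 to 0.98 across genes. The sorts were read from markers: the mean log2 value of 6 basal markers (Krt5, Krt14, Krt17, Trp63, Acta2 and Oxtr) was 10.7 to 10.9 in the 4 basal groups, and that of 6 luminal markers (Krt8, Krt18, Krt19, Cdh1, Epcam and Cldn3) was 11.3 to 11.5 in the 4 luminal groups. The values of control basal GFP-positive arrays had the lowest mean spread over genes (SD 1.71, against 1.77 to 1.86 in the other groups), and limma gave these arrays weights of 0.42 to 0.70, against 0.60 to 1.71 for the others, so that the ranges overlap. The mutant calls in basal GFP-positive cells are therefore also given against control basal GFP-negative cells. Lgr5 was above the dim mark in all 4 basal groups and did not follow the GFP labels in mutant mice. It averaged 6.30 in mutant and 9.47 in control GFP-positive cells, and 7.34 in mutant and 8.07 in control GFP-negative cells. In basal GFP-positive cells Pik3ca, whose probe set is not stated to read the transgene, averaged 8.07 on mutant and 6.98 on control arrays. On the control basal GFP-negative arrays it averaged 7.69, with overlap with the mutant GFP-positive arrays (difference 0.38, limma adjusted p = 0.394). In cell pools of this kind, a lower share of expressing cells and less RNA per cell cannot be told apart.

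The 4 members differed in where they were expressed. Ehf was high in the luminal groups and in mutant basal GFP-positive cells, Elf5 varied widely between arrays of some groups, Elf3 followed the luminal gates, and Spdef stayed close to the dim mark in every group. Ehf group means ran, from high to low, from control luminal Sca1-negative (11.03), mutant luminal Sca1-negative (10.91), mutant luminal Sca1-positive (10.40), mutant basal GFP-positive (9.99) and control luminal Sca1-positive (9.78) to mutant basal GFP-negative (6.45), control basal GFP-positive (5.29) and control basal GFP-negative cells (5.09). Of the 7 pairs of neighbours in that order, 4 had arrays that did not overlap, and the widest gap, 3.33, lay between control luminal Sca1-positive and mutant basal GFP-negative cells. Mutant basal GFP-positive cells thus stood with the luminal groups, and their arrays overlapped those of control luminal Sca1-positive cells.

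Elf5 was highest in mutant luminal Sca1-negative cells (9.13 ± 0.60, SD of 3 arrays), then in control luminal Sca1-negative (8.01 ± 0.76), mutant basal GFP-positive (7.36 ± 1.57) and mutant luminal Sca1-positive cells (6.40 ± 1.99). Mutant basal GFP-negative (4.88) and control luminal Sca1-positive cells (4.77) followed, and both control basal groups were dim (GFP-positive 4.14, GFP-negative 4.10). Neighbouring groups overlapped in 6 of 7 pairs, the exception being control luminal Sca1-positive above control basal GFP-positive cells. The order of neighbours among the upper groups is therefore within the spread of their arrays. Mutant luminal Sca1-negative arrays (8.64 to 9.80) nevertheless all lay above mutant luminal Sca1-positive arrays (4.67 to 8.58).

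Elf3 lay between 8.10 and 8.61 in the 4 luminal groups and between 4.88 and 6.10 in the 4 basal groups. Its neighbours in the order overlapped in 6 of 7 pairs, and the gap of 1.99 between the lowest luminal group (mutant Sca1-negative) and the highest basal group (control GFP-positive) was the exception. Spdef group means lay between 4.63 and 5.10, with overlap in 7 of 7 neighbouring pairs. Across the 24 arrays Elf5 correlated with Ehf at r = 0.75 and Ehf with Elf3 at r = 0.69, while Elf5 and Elf3 gave r = 0.40. These coefficients describe arrays that share groups, so no p is given.

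**Figure D1:**
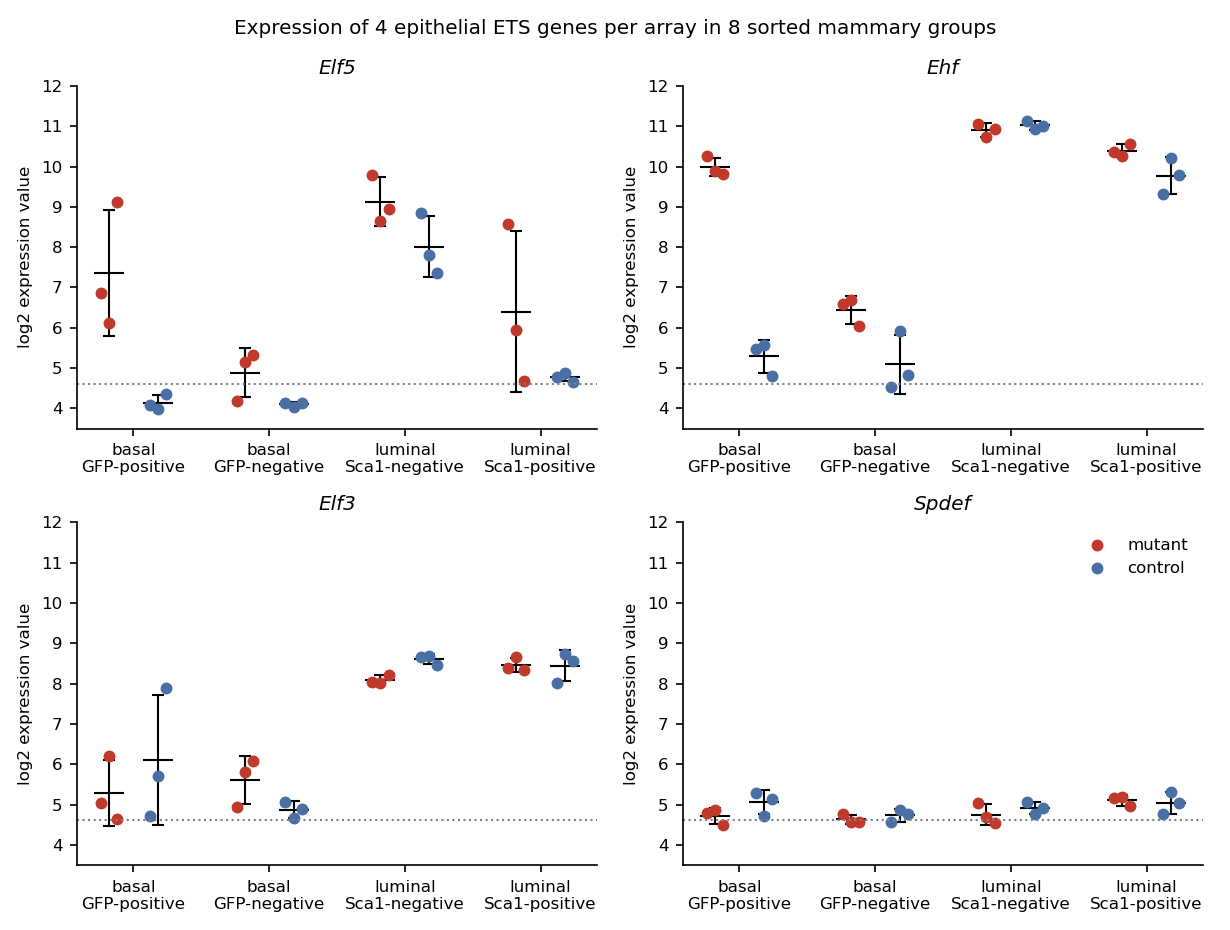
Log2 expression values of Elf5, Ehf, Elf3 and Spdef (vertical axes) in the 4 gates (horizontal axes), with mutant arrays in red and control arrays in blue. Points are arrays, bars the mean and SD of 3 arrays, and the dotted line the dim mark of 4.60. Ehf in mutant basal GFP-positive cells (9.82 to 10.26) lies near the luminal groups, Elf5 spreads widely in mutant basal GFP-positive and mutant luminal Sca1-positive cells, and Spdef stays between 4.49 and 5.32 on every array.

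The first comparison set mutant against control basal GFP-positive cells. GFP can mark Lgr5 alone in control cells, and the transgene, Lgr5 or both in mutant cells. An effect of the transgene and a difference in the cells that GFP selects therefore cannot be told apart here. Ehf and Elf5 were higher in mutant cells, by 26.0-fold and 9.31-fold, and Elf3 and Spdef did not pass the test. Ehf, the close relative of Elf5, stood at 10.26, 9.90 and 9.82 on the 3 mutant arrays, against 5.47, 5.58 and 4.81 on the 3 control arrays. The groups were far apart, with every mutant array more than 4 log2 units above every control array. The log2 difference was 4.70 (standard error 0.30, 95% interval 4.08 to 5.33), with a Benjamini-Hochberg adjusted p of 1.47e-08 from limma over all genes. Without each of the 6 arrays in turn the Ehf difference lay between 4.46 and 4.85 and passed each time.

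Elf5, the alveolar factor, stood at 6.85, 6.11 and 9.12 in mutant basal GFP-positive cells, against 4.09, 3.98 and 4.35 in control basal GFP-positive cells. All mutant arrays lay above all control arrays, but replicate 3 of the mutant stood well above the other two, and the control level was dim. The log2 difference was 3.22 (standard error 0.77, interval 1.61 to 4.83, adjusted p = 0.0144). The call was lost without mutant replicate 3 (2.34, adjusted p = 0.0646) and in a fit restricted to the groups compared (adjusted p = 0.125).

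In these gates Elf3 read 5.04, 6.21 and 4.64 on the mutant arrays, against 4.71, 5.72 and 7.88 on the control arrays. The groups overlapped and control replicate 3 was high, at a level otherwise seen near the luminal groups. The difference was -0.81 (interval -1.95 to 0.34, adjusted p = 0.314), and without that control array it was 0.08. Spdef read 4.79, 4.87 and 4.49 on the mutant arrays, against 5.29, 4.72 and 5.15 on the control arrays, a difference of -0.33 (adjusted p = 0.179). Without control replicate 2 the Spdef difference was -0.50 and passed (adjusted p = 0.0461). Of the family 2 of 4 members were called, against 12.6% of all genes tested, and the median difference of all genes was -0.10 (-0.03 after quantile normalization).

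Luminal markers were read beside these results. The mean of the 6 luminal markers was 9.01, 9.42 and 8.34 on the mutant basal GFP-positive arrays, against 8.64, 9.04 and 8.57 on the control basal GFP-positive arrays, and 11.28 to 11.61 on the luminal arrays. Mutant replicate 3, which had the most Elf5, had the lowest luminal marker mean of the basal arrays, and Ehf was 9.82 there, against 10.26 and 9.90 on the other mutant arrays. Of the 6 luminal markers 1, Cdh1, was called higher. The 6 basal markers averaged 10.6 to 10.7 on these mutant arrays. Of 9 measured leukocyte markers 8 were dim in every group, Ptprc among them, and the 6 endothelial markers were all dim in both basal GFP-positive groups. The summed log2 value of 6 fibroblast markers was 33.7 to 35.1 on the mutant arrays, against 29.5 to 30.7 on the control arrays. It was 30.6 to 33.2 on the control basal GFP-negative arrays. Among these fibroblast markers Dcn and Col1a2 were called higher, and against control basal GFP-negative cells Col1a2 alone. Dcn averaged 11.11 and Col1a2 6.06 with the mutation, against 6.80 and 5.59 without it in the same gate. Averages of Col1a1 (5.11 against 5.39) and Col3a1 (4.79 against 4.83) were lower, so the higher sum came mainly from Dcn. Dcn also averaged 10.00 in control luminal Sca1-negative and 11.53 in control luminal Sca1-positive cells, so the sum is not read as fibroblast content. Pdgfra and Lum were dim, and the part of these markers in the Elf5 and Ehf differences was not tested.

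**Figure D2:**
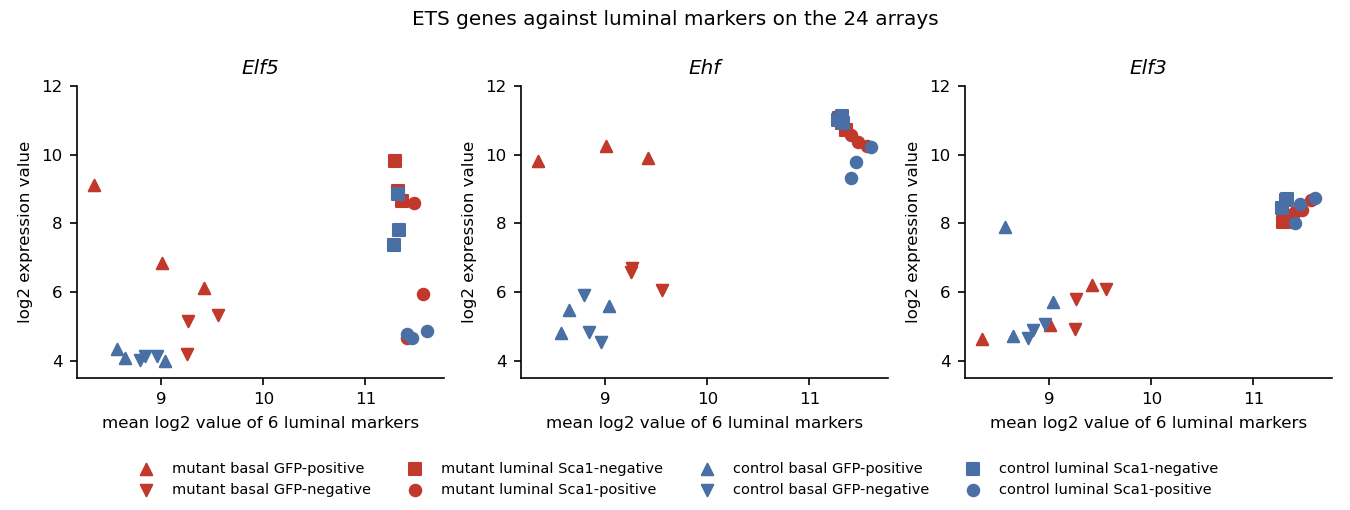
Log2 expression values of Elf5, Ehf and Elf3 (vertical axes) against the mean log2 value of 6 luminal markers (horizontal axes) on the 24 arrays, with colours for genotype and shapes for gates. Mutant basal GFP-positive arrays (red upward triangles) have luminal marker means of 8.34 to 9.42, among the other basal arrays, while their Ehf values of 9.82 to 10.26 lie near those of the luminal arrays.

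When control basal GFP-negative cells served as the comparison, the same mutant arrays gave like differences. Ehf stood at 4.53, 5.92 and 4.83 on those control arrays, all below the mutant arrays, and the difference was 4.90 (standard error 0.30, adjusted p = 8.23e-09). Elf5 stood at 4.12, 4.03 and 4.14 there, dim on each array, and the difference was 3.26 (standard error 0.77, adjusted p = 0.0229). This Elf5 call ended without mutant replicate 3 (2.38, adjusted p = 0.114) and without any 1 of the 3 control arrays (adjusted p = 0.0528 to 0.0654). Elf3 differed by 0.42 (interval -0.72 to 1.56) and Spdef by -0.01 (interval -0.36 to 0.34). The count was 2 of 4 members, against 3.22% of all genes. These comparisons share the mutant arrays with those above.

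Within mutant mice, GFP-positive basal cells were next set against GFP-negative basal cells, which the labels describe as lacking both Lgr5 and transgene expression. On the arrays Lgr5 went against that description, at 7.18, 7.29 and 7.55 in the mutant GFP-negative cells and a mean of 6.30 in the GFP-positive cells (difference -1.04, adjusted p = 0.249). Ehf had been 9.82 to 10.26 in the GFP-positive cells and was 6.59, 6.69 and 6.05 in the GFP-negative cells, without overlap. The difference was 3.55 (standard error 0.30, adjusted p = 7.08e-07). Elf5 stood at 4.18, 5.15 and 5.32 in the mutant GFP-negative cells, below every GFP-positive array, but its difference of 2.48 (interval 0.86 to 4.09) did not pass (adjusted p = 0.116). Elf3 and Spdef differed by -0.31 and 0.09. The family had 1 call of 4, against 2.51% of all genes. In control mice Lgr5 averaged 9.47 in GFP-positive and 8.07 in GFP-negative basal cells (difference 1.40, adjusted p = 0.0898), with arrays that did not overlap and none dim. There the GFP states gave 0 calls of 4 against 1.25% of all genes (limma, 3324 genes at an unadjusted p under 0.05, 1 member among them). Ehf differed by 0.20 (interval -0.43 to 0.82) and Elf5 by 0.04 between GFP-positive and GFP-negative control basal cells. Elf3 differed by 1.23 (adjusted p = 0.267), and by 0.34 without control GFP-positive replicate 3.

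Mutant and control basal GFP-negative cells were compared in the same way. Ehf was above its control values on every mutant array (6.59, 6.69 and 6.05, against 4.53, 5.92 and 4.83), a difference of 1.35 (interval 0.73 to 1.97) with an adjusted p of 0.18. Without control replicate 2, the array at 5.92, it was 1.76 and passed (adjusted p = 0.0116). Elf5 arrays also did not overlap, with a difference of 0.79 (interval -0.83 to 2.40, adjusted p = 0.926) between levels near the dim mark. Elf3 stood at 4.94, 5.80 and 6.09 in mutant and 5.08, 4.67 and 4.89 in control cells (difference 0.73, adjusted p = 0.889), with overlap, and Spdef differed by -0.10. No member was called, where 0.0602% of all genes were (12 genes, with 1258 at an unadjusted p under 0.05).

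Whether the mutant effect differed between the basal fractions was tested as a difference of differences. For Ehf the effect was 3.35 larger in GFP-positive than in GFP-negative cells (standard error 0.42, interval 2.47 to 4.23, adjusted p = 0.000239), and the call remained in each of 12 fits without 1 array. The corresponding Elf5 value was 2.43 (interval 0.15 to 4.72, adjusted p = 0.325), that of Elf3 -1.54 (adjusted p = 0.382) and that of Spdef -0.24. Thus 1 of 4 members was called, against 1.07% of all genes.

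**Figure D3:**
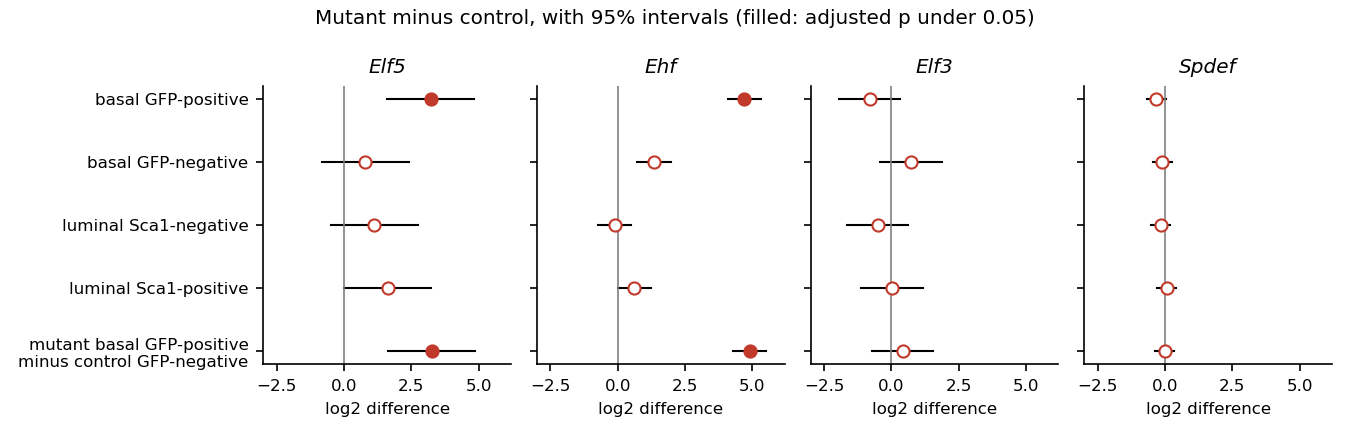
Log2 differences, mutant minus control (horizontal axes), of the 4 members in each gate, and in the lowest row mutant basal GFP-positive minus control basal GFP-negative cells. Points are limma estimates from 3 arrays per group, lines 95% intervals, and filled points have an adjusted p under 0.05. The filled points are Ehf (4.70 and 4.90) and Elf5 (3.22 and 3.26) in basal GFP-positive cells.

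In luminal Sca1-negative cells, where Elf5 is highest in both genotypes, no member passed. Elf5 stood at 9.80, 8.64 and 8.94 in mutant and 8.84, 7.82 and 7.37 in control cells, with slight overlap, and differed by 1.12 (interval -0.49 to 2.73, adjusted p = 0.645). Ehf stood at 11.06, 10.73 and 10.93 in mutant and 11.14, 10.92 and 11.02 in control cells. These Ehf groups overlapped, and the interval of the difference (-0.12) ran from -0.74 to 0.51. Elf3 was lower on every mutant array (8.03, 8.03 and 8.23) than on the control arrays (8.67, 8.70 and 8.46). The difference was -0.51 (interval -1.65 to 0.63, adjusted p = 0.792), with a standard error of 0.54 from the spread in all 8 groups. The SD of Elf3 was 0.11 in these mutant and 0.13 in these control cells. Spdef stood at 5.04, 4.68 and 4.53 in mutant and 5.06, 4.76 and 4.91 in control cells, with overlap, and differed by -0.16. No member was called, against 0.727% of all genes (145 genes, with 2213 at an unadjusted p under 0.05).

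In luminal Sca1-positive cells Elf5 stood at 8.58, 5.96 and 4.67 in mutant and 4.77, 4.87 and 4.67 in control cells. The mutant arrays ran from a level close to that of Sca1-negative cells down to that of the control arrays. The difference was 1.63 (interval 0.02 to 3.24, adjusted p = 0.638), and 0.54 without mutant replicate 1. That array also stood apart in basal markers, with a mean of 6.89 over the 6 genes against 5.52 and 5.53 on the other two mutant arrays and 5.39 to 5.56 on the control arrays. The basal marker mean was likewise 7.05 to 7.58 in mutant and 5.20 to 5.50 in control luminal Sca1-negative cells, and its part in the Elf5 values was not tested. Ehf stood at 10.36, 10.26 and 10.57 in mutant and 9.32, 10.22 and 9.80 in control Sca1-positive cells, without overlap, and differed by 0.62 (interval -0.01 to 1.24, adjusted p = 0.65). Elf3 differed by 0.02 (interval -1.12 to 1.16) and Spdef by 0.06. No member was called, against 0.777% of all genes (155 genes, with 1542 at an unadjusted p under 0.05).

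The effects in the luminal and basal gates were then compared directly. For Ehf the mutant effect in luminal Sca1-negative cells minus that in basal GFP-positive cells was -4.82 (standard error 0.42, interval -5.70 to -3.94, adjusted p = 3.42e-06). The Elf5 value was -2.10 (interval -4.38 to 0.18, adjusted p = 0.466) and that of Elf3 0.30 (adjusted p = 0.914), which turned to -0.59 without control basal GFP-positive replicate 3. The family had 1 call of 4, against 1.03% of all genes. Between the luminal gates, Sca1-positive minus Sca1-negative, the mutant effects differed by 0.51 for Elf5, 0.74 for Ehf, 0.53 for Elf3 and 0.22 for Spdef, with 0 of 4 called, against 0.161% of all genes (32 genes, with 1422 at an unadjusted p under 0.05). The Elf5 value turned to -0.58 without mutant Sca1-positive replicate 1.

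The lineage comparisons within a genotype asked how far each member separates luminal from basal cells. In control mice, luminal Sca1-negative cells exceeded basal GFP-positive cells in Ehf by 5.74 (standard error 0.30, adjusted p = 2.56e-10), in Elf5 by 3.87 (0.77, adjusted p = 0.00248) and in Elf3 by 2.50 (0.54, adjusted p = 0.00506). All luminal arrays lay above all basal arrays for these 3 genes, and Spdef differed by -0.14, so 3 of 4 members were called, against 10.0% of all genes. The Elf3 call was lost in a fit restricted to the groups compared (adjusted p = 0.197). With control basal GFP-negative cells in their place the differences were 5.93 for Ehf, 3.91 for Elf5 and 3.73 for Elf3 (adjusted p = 1.63e-10, 0.0022 and 0.00012), again 3 of 4 members against 9.83% of all genes. Control luminal Sca1-positive cells exceeded control basal GFP-negative cells in Ehf by 4.68 (adjusted p = 2.61e-09) and in Elf3 by 3.57 (adjusted p = 0.000128). For Elf5 that difference was 0.67 (interval -0.94 to 2.29, adjusted p = 0.672), although its arrays did not overlap, and in a fit restricted to these groups it passed (adjusted p = 0.00944). The count was 2 of 4 members, against 13.1% of all genes.

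In mutant mice the same lineage comparison called Elf3 alone among the members. Elf3 stood at 8.03, 8.03 and 8.23 in Sca1-negative luminal cells against 5.04, 6.21 and 4.64 in basal GFP-positive cells (difference 2.80, standard error 0.54, adjusted p = 0.00218). Ehf lay above the basal arrays on every luminal array, by 0.92 (interval 0.29 to 1.54, adjusted p = 0.0726). That difference passed after removal of dim genes (adjusted p = 0.0477), under array weighting (0.021) and in a fit restricted to these groups (0.0204). Elf5 overlapped, with a difference of 1.77 (adjusted p = 0.223), and passed without mutant basal replicate 3 (2.65, adjusted p = 0.0429). With Spdef at 0.03, 1 of 4 members was called, against 7.86% of all genes.

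Sca1 divides the luminal cells, and in control mice Elf5 and Ehf were lower in its positive fraction. Elf5 stood at 4.77, 4.87 and 4.67 in Sca1-positive cells against 8.84, 7.82 and 7.37 in Sca1-negative cells, a log2 difference of -3.24 (standard error 0.77, adjusted p = 0.0229). Ehf stood at 9.32, 10.22 and 9.80 against 11.14, 10.92 and 11.02, also without overlap, a difference of -1.25 (standard error 0.30, adjusted p = 0.0233). Both calls were near the threshold: leaving out 1 array at a time, each passed in 1 of 6 fits, and the differences then ran from -3.56 to -2.82 for Elf5 and from -1.47 to -1.02 for Ehf. Elf3 differed by -0.16 (interval -1.30 to 0.98) and Spdef by 0.13, so 2 of 4 members were called, against 3.69% of all genes.

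In mutant mice the Elf5 difference between Sca1-positive and Sca1-negative cells was -2.73 (interval -4.34 to -1.11, adjusted p = 0.0587). It was -3.82 without mutant Sca1-positive replicate 1 and then passed (adjusted p = 0.00171). It also passed after removal of dim genes (adjusted p = 0.0312) and under array weighting (-2.71, adjusted p = 0.0455). Ehf was lower on every Sca1-positive array, with a difference of -0.51 (adjusted p = 0.569), and Elf3 higher on every one, with a difference of 0.37 (adjusted p = 0.92). No member was called, against 3.66% of all genes (729 genes, with 2449 at an unadjusted p under 0.05).

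Elf5 acts in a pathway with prolactin signalling and milk genes, so 13 measured genes of a 15-gene list of these were counted. In basal GFP-positive cells 6 were higher in mutant than in control cells and Stat5a, which encodes the prolactin-activated transcription factor, was lower. That is 7 of 13 called, against 12.6% of all genes, with 4.74% of all genes called higher. The casein genes Csn3, Csn2 and Csn1s1 rose by 5.63, 5.90 and 5.60, and Xdh, whose product helps secrete milk fat, by 2.70. The median difference of the list was 0.70, against -0.10 over all genes. Against control basal GFP-negative cells 4 of 13 were higher and 0 lower, where 3.22% of all genes were called. The values were 5.73 for Csn2, 5.32 for Csn1s1, 3.13 for Xdh and 2.24 for Csn3 (adjusted p = 0.0189), and Stat5a did not pass (-0.58, adjusted p = 0.20). Csn3 itself was lower in control GFP-positive (5.35) than in control GFP-negative basal cells (8.73; difference -3.39, adjusted p = 0.00713). The smaller Csn3 call ended in 4 fits without 1 array (adjusted p = 0.0567 to 0.0739). In luminal Sca1-negative cells 2 of 13 were higher (Wap by 5.90, Csn2 by 3.44), in luminal Sca1-positive cells 2 (Csn2 by 6.05, Csn1s1 by 5.62), and in basal GFP-negative cells 0. Of all genes 0.557%, 0.401% and 0.0451% were called higher in these 3 comparisons. In a fit restricted to the groups compared the Wap call and both Sca1-positive calls were lost (adjusted p = 0.0564, 0.0632 and 0.109).

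The level of Elf5 and that of the milk gene Csn2 were set side by side on each array. In mutant luminal Sca1-positive cells Csn2 stood at 12.48, 11.51 and 10.96 on the arrays with Elf5 at 8.58, 5.96 and 4.67. The array with the most Elf5 had the most Csn2. Control luminal Sca1-positive cells had Csn2 at 5.04, 5.17 and 6.58 with Elf5 at 4.77, 4.87 and 4.67. In mutant basal GFP-positive cells Csn2 stood at 12.28, 10.17 and 10.70 where Elf5 stood at 6.85, 6.11 and 9.12. There the array with the most Elf5 was not the one with the most Csn2. Control luminal Sca1-negative cells had Elf5 at 8.84, 7.82 and 7.37 with Csn2 at 8.80, 8.96 and 9.46. Mutant luminal Sca1-negative cells had Elf5 at 9.80, 8.64 and 8.94 with Csn2 at 12.65, 12.46 and 12.40. The part of Elf5 in the Csn2 values was not tested.

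Other ETS genes were counted to set the members against their family. Of 23 further ETS genes 22 were measured, and in basal GFP-positive cells 2 were higher in mutant cells and 1 lower. These 3 of 22 are near the 12.6% of all genes called in that comparison. Ets1 stood at 7.80 in mutant and 6.48 in control cells (difference 1.33, standard error 0.35, adjusted p = 0.0219). Elf1 stood at 8.36 in mutant and 7.26 in control cells (difference 1.10, standard error 0.29, adjusted p = 0.0225). After quantile normalization neither passed (1.07 with adjusted p = 0.0772 for Ets1, 0.81 with adjusted p = 0.117 for Elf1). Each call was lost in 5 of 12 alternatives, and Elf1 was 0.71 without control replicate 1. Against control basal GFP-negative cells neither passed (0.76 with adjusted p = 0.289 for Ets1, 0.999 with adjusted p = 0.0713 for Elf1), and 2 other genes of the 22 were called, Ets2 higher and Etv1 lower. Erg, the lower gene, was dim in every group. The median difference of the list was -0.02, against -0.10 over all genes. Among 16 other epithelial transcription factors Klf5 was higher by 1.22 (adjusted p = 0.00428) and Cebpd lower, with a difference of -1.17 (adjusted p = 0.0116), and the list's median was 0.00. These 2 of 16 are again near 12.6%. Both also passed against control basal GFP-negative cells (Klf5 1.31, Cebpd -1.22). The Klf5 call was lost in a fit restricted to the groups compared (adjusted p = 0.174). The Cebpd call was lost there (adjusted p = 0.101), without control replicate 3 (0.0582) and without mutant replicate 1 (0.0531).

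Ehf and Elf5 are direct neighbours on chromosome 2, so the 8 protein-coding genes flanking the pair were read as well. In basal GFP-positive cells 4 of 8 were higher in mutant than in control cells (Cd44, Apip, Cat and Abtb2), against 12.6% of all genes, and 0 were lower. Cat, which encodes catalase and lies next to Elf5, stood at 9.21, 9.36 and 9.23 in mutant and 7.29, 6.40 and 7.19 in control cells, a difference of 2.31 (standard error 0.32, adjusted p = 0.000208). Abtb2, the next gene along, stood at 8.15, 8.81 and 8.42 in mutant and 6.30, 7.003 and 5.87 in control cells, a difference of 2.07 (standard error 0.40, adjusted p = 0.00375). Neither gene's groups overlapped.

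Cd44, a hyaluronan receptor, differed by 1.39 (adjusted p = 0.0138) and Apip, an enzyme of methionine salvage next to Ehf, by 1.65 (adjusted p = 0.0169). These calls were the less stable: that of Cd44 was lost in a fit restricted to the groups compared (adjusted p = 0.116) and without control replicate 1 or 3 (0.0556 and 0.0605). That of Apip was lost after quantile normalization (adjusted p = 0.0509), without control replicate 1 (0.06) and without mutant replicate 2 (0.0608). The Abtb2 call was lost in a fit restricted to the groups compared (adjusted p = 0.0606). The remaining genes Slc1a2, Pdhx, Nat10 and Caprin1 differed by -0.21, 0.19, 0.02 and 0.19 and did not pass, Pdhx lying between Cd44 and Apip.

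Against control basal GFP-negative cells Cd44 (1.51), Cat (1.98) and Abtb2 (2.11) passed and Apip did not (1.19, adjusted p = 0.134). That is 3 of 8, against 3.22% of all genes. Within mutant mice 2 of the 8, Cat and Abtb2, were higher in GFP-positive than in GFP-negative basal cells, by 1.28 and 2.19. There 2.51% of all genes were called. In luminal cells the flanking genes gave 0 mutant calls in Sca1-negative and 1 in Sca1-positive cells (Cd44), against 0.727% and 0.777% of all genes. In control mice Cd44 (10.02 against 8.83) and Abtb2 (8.83 against 6.39) were called higher in luminal Sca1-negative than in basal GFP-positive cells. These 2 of 8 stand beside 10.0% of all genes called there. Cat was highest in mutant basal GFP-positive cells (9.27, against group means of 6.51 to 8.04 elsewhere). Near Elf3, 1 of 3 measured neighbours was called in basal GFP-positive cells (Timm17a, 1.40, adjusted p = 0.0283), and near Spdef 1 of 4 (Pacsin1, -0.45, adjusted p = 0.0206). Of all genes 12.6% were called there, these counts are single genes, and Pacsin1 was dim in the mutant cells (4.435).

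**Figure D4:**
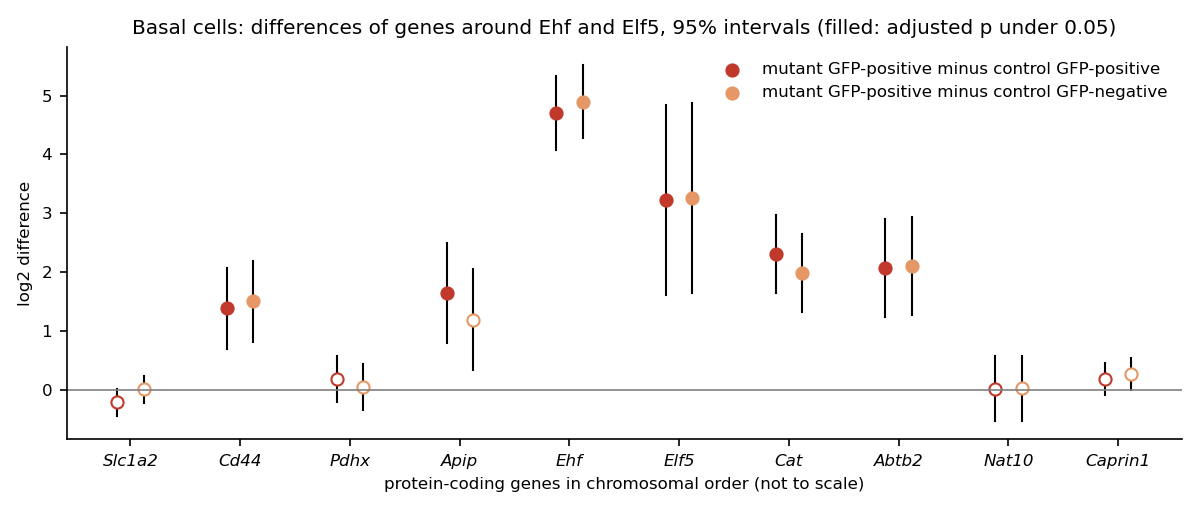
Log2 differences (vertical axis) of the genes around Ehf and Elf5, in chromosomal order and not to scale (horizontal axis), of mutant basal GFP-positive cells minus control basal GFP-positive (red) or control basal GFP-negative cells (orange). Points are limma estimates from 3 arrays per group, lines 95% intervals, filled points have an adjusted p under 0.05, and the 2 series share the mutant arrays. Ehf (4.70) and Elf5 (3.22) exceed Cat (2.31) and Abtb2 (2.07), and the points of Slc1a2, Pdhx, Nat10 and Caprin1 are open.

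The genes whose pattern was most like each member were named by Pearson's r over the 24 arrays. For Elf5 they were Cck, a gut and brain peptide hormone (r = 0.93), Plin2, a lipid droplet coat protein (0.89), Muc15, a membrane mucin (0.88), and Lipa, a lysosomal lipase (0.87). Their highest group was mutant luminal Sca1-negative cells, as for Elf5. For Ehf they were Hmox1, a haem-degrading enzyme (0.95), the cytokine Lif (0.94), the chemokine Cxcl2 (0.94) and Pvr, an adhesion receptor (0.93). For Elf3 they were Btbd9 (0.93), the luminal keratin Krt8 (0.93), Rab11fip1, a recycling endosome protein (0.93), and the tight junction gene Cldn4 (0.92). For Spdef the highest values were lower, from 0.79 (Chrnb4) to 0.74 (Cst7), with Zfp866 and Mfsd4a between them, among genes with group means of 3.60 to 4.93. Over the 8 group means the values of these 16 genes were 0.71 to 0.98, and the arrays share groups, sortings and the amplification.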

How the data were processed

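The assay was the Affymetrix mouse Gene 1.0 ST array, 24 arrays in 8 groups of 3, with groups taken from the labels. The authors deposited log values per probe set, taken as log2 from their range because no source used here states the base. The submitters' processing notes name affy, and the background correction and normalization are not given in the sources used here. Of 34760 probe sets 21640 had 1 gene symbol, and the brightest per gene over all arrays gave 19937 genes. A limma fit (limma 3.58.1, R 4.3.3) gave each group a mean, with 16 residual degrees of freedom. Differences were tested two-sided at a Benjamini-Hochberg adjusted p under 0.05 over all genes within each of 16 contrasts. The code was tested on simulated data. The members and lists were chosen with earlier results of these data known. Genes named besides the members were the called list genes with the smallest p (up to 4 per list and mutant comparison), locus neighbours, and the 4 genes most like each member. The last were taken without predicted genes, receptors of smell, small RNAs and any other gene whose symbol starts with Rn. Stat5a, Cdh1, Dcn, Col1a2, Ets2, Etv1 and Agr2 were named after their values were seen. Same-numbered arrays were checked for pairing: in 0 of 13 comparisons did every pair correlate over 0.1, so the numbers were not used as a block. The alternatives were quantile normalization, removal of dim genes, array weights, averaged probe sets, a replicate block, fits restricted to the groups compared, fits without control basal GFP-positive arrays, and 1 array left out at a time. The number of arrays limits the precision.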

Additional observations from a re-analysis of the deposited data

Results flagged for a closer look

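The mutant effect on Ehf differed between gates by a test of the difference itself. It was larger in basal GFP-positive than in basal GFP-negative cells by 3.35 on the log2 scale (adjusted p = 0.000239). In luminal Sca1-negative minus basal GFP-positive cells the difference of effects was -4.82 (adjusted p = 3.42e-06). Both share the mutant and the control basal GFP-positive arrays, so they are not independent. The values of these control arrays had the lowest mean spread over genes. Without each of the arrays of the compared groups in turn, the first ran from 2.94 to 3.63 and the second from -4.97 to -4.58.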

How the results depend on the processing

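Over 64 member results and 884 alternative values, 855 kept the side of the threshold, 19 lost the call, 10 gained it and 0 reversed a called value. Of the 855, 21 values, over 13 results that were not called, had the opposite sign, and 834 kept direction and side. The Ehf calls in mutant basal GFP-positive cells held in all of the alternatives run. Fits restricted to the groups compared take the spread from those groups alone and from fewer arrays. Such fits lost Elf5 in mutant against control basal GFP-positive cells (3.22, adjusted p = 0.125). They lost it as well between the same mutant cells and control basal GFP-negative cells (3.26, adjusted p = 0.145). They also lost Elf3 between luminal Sca1-negative and basal GFP-positive control cells (2.50, adjusted p = 0.197) and Ehf in control Sca1-positive against Sca1-negative cells (-1.25, adjusted p = 0.0805), and gained Elf5 in control luminal Sca1-positive against basal GFP-negative cells (0.67, adjusted p = 0.00944). Ehf between luminal Sca1-negative and basal GFP-positive mutant cells passed in such a fit (0.92, adjusted p = 0.0204), after removal of dim genes (0.92, adjusted p = 0.0477) and under array weighting (0.92, adjusted p = 0.021). Elf5 in mutant Sca1-positive against Sca1-negative cells passed after removal of dim genes (-2.73, adjusted p = 0.0312) and under array weighting (-2.71, adjusted p = 0.0455).

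Leaving out 1 array at a time, the mutant minus control differences in basal GFP-positive cells ran from 2.34 to 3.85 for Elf5 and from -0.50 to -0.21 for Spdef, and in basal GFP-negative cells from 1.07 to 1.76 for Ehf. Elf5 ran from 2.38 to 3.89 in mutant basal GFP-positive against control basal GFP-negative cells and from 1.14 to 2.65 between luminal Sca1-negative and basal GFP-positive mutant cells. Between Sca1-positive and Sca1-negative cells the differences ran from -3.82 to -1.86 for Elf5 in mutant mice, and from -3.56 to -2.82 for Elf5 and -1.47 to -1.02 for Ehf in control mice. Among differences of effects that were not called, Elf5 ran from -0.58 to 1.38 between the luminal gates and from -2.73 to -1.22 between luminal Sca1-negative and basal GFP-positive cells, and Elf3 from -2.24 to -0.65 between the basal fractions. The causes were not tested.

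With the replicate block, Elf5 in basal GFP-positive cells was 3.22 and Ehf 4.70, and no member call changed. The block moved 0 of 16 counts of called genes by over 1.5 times. Fits restricted to the groups compared moved 14 of 16, array weights 3, quantile normalization 2, the filter on dim genes 1 and averaged probe sets 0. Without the control basal GFP-positive arrays 1 of 11 moved. In mutant against control basal GFP-positive cells 2504 genes were called, against 1100 after quantile normalization, 1219 after removal of dim genes and 234 in the fit of only these groups. Calls between basal GFP-positive and GFP-negative cells were 500 in mutant mice (788 under array weighting) and 250 in control mice (32 under array weighting). Dim levels limit the size of the Elf5 differences in basal cells and any reading of Spdef.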

Other observations

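Genes that depend on Spdef in goblet cells of other mouse tissues were read beside it. Of 6 such genes, all measured, 2 were lower in mutant than in control basal GFP-positive cells, where 7.81% of all genes were called lower, and 0 were called against control basal GFP-negative cells. They were Tff2 (3.95 in mutant and 4.33 in control cells, difference -0.38, adjusted p = 0.00879) and Muc5b (4.01 in mutant and 4.22 in control cells, difference -0.21, adjusted p = 0.0409), both dim in both groups. After quantile normalization neither passed (-0.23 with adjusted p = 0.0913 for Tff2, -0.06 with adjusted p = 0.663 for Muc5b). Agr2, 1 of the 6, was called higher in Sca1-positive than in Sca1-negative luminal cells of both genotypes. It averaged 4.70 against 4.19 in control and 4.94 against 4.28 in mutant mice, so both Sca1-negative levels were dim. Of all genes 2.08% in control and 1.81% in mutant mice were called higher there.

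Of 7 measured genes of a 9-gene list of hormone-sensing luminal genes, 6 were higher in Sca1-positive than in Sca1-negative cells in mutant mice and 3 in control mice, where 1.81% and 2.08% of all genes were called higher. The test of the difference between the genotypes called 0 of the 7. Prom1, a membrane glycoprotein of these cells, was lower in mutant than in control cells of both luminal gates. Its level was 4.44 in mutant and 6.61 in control Sca1-negative cells (difference -2.17, adjusted p = 0.00296), and 6.24 in mutant and 8.56 in control Sca1-positive cells (difference -2.32, adjusted p = 0.00113). In fits restricted to the groups compared both calls were lost (adjusted p = 0.194 and 0.216).

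Elk1, another ETS gene, averaged 7.30 on mutant and 5.68 on control basal GFP-negative arrays (difference 1.62, adjusted p = 0.0324), and the call ended in 9 of the 13 alternatives run. Elf4 stood at 5.73 in mutant and 4.36 in control luminal Sca1-positive cells (difference 1.37, adjusted p = 0.0312), and the call ended in 8 of 13. With the probe sets of each gene averaged, the Elf4 difference was 0.67 (adjusted p = 0.0537).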
